A study of Mus musculus with 79 samples.

Results

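T+ cells of T knockout (T KO) mouse embryos at Theiler stage 13 (TS13) were set against T+ cells of T KO embryos at Theiler stage 12 (TS12), with 1 RNA library for each stage. A gene was compared where at least 1 of both libraries reached 5 FPKM (fragments per kilobase of transcript, scaled to library size). Where only 1 of them did, the minimum alone fixes the sign of the difference. Of 23983 gene symbols in the table, 8286 met that minimum and 8144 stayed after small RNA genes, numbered gene models and pseudogenes were left out. The stage difference is log2(FPKM + 1) at TS13 minus TS12, and a gene is called higher or lower where it is at least 1 in size, which is 2-fold on that scale. With 1 library per group the difference has no replicate check, and no p-value is given for it.

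The series holds 79 samples, of which 9 are bulk RNA libraries from the caudal end of mouse embryos, and asks how T and Sox2 bear on the fate of neuro-mesodermal progenitors. T KO TS13 and T KO TS12 were T+ sorted cells of embryos homozygous for the T allele 2J (T2J/2J), with C57BL/6J as the strain label. WT TS13 and WT TS12 were T+ sorted wild-type cells with the strain label C57BL/6N, so genotype and strain label cannot be told apart. Per the labels, embryos of all these groups were derived from embryonic stem cells by tetraploid complementation, and samples were pooled before sorting. The marker that made cells T+ in embryos without T, the number of embryos in a pool and the number of stem cell clones were not stated in the labels.

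Neuro-mesodermal progenitors lie at the caudal end of the embryo, beside the late primitive streak, and give rise to spinal cord and to the presomitic mesoderm that forms somites. They are kept by Wnt3a, Fgf8 and the caudal homeobox (Cdx) factors. T, also called Brachyury, is a T-box factor known to keep Wnt and FGF ligands on in this region and to drive mesoderm formation, while Sox2 is a factor of neural and progenitor cells. Embryos without T are known to lack the posterior trunk and the tail.

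T itself was at 3.32 FPKM in T KO TS13, 4.61 in T KO TS12, 76.4 in WT TS13 and 69.8 in WT TS12. Both knockout libraries lay far below both wild-type libraries, so the cells labelled T+ held little T mRNA. Depth, estimated from the steps of 1 fragment in low genes, was 31.5 M fragments in T KO TS13 and 20.8 M in T KO TS12, against 40.1 M and 21.9 M in WT at the same stages. At 5 FPKM, a transcript 1 kb long corresponds to about 157 and 104 fragments in T KO TS13 and TS12, for a counting error of 0.18 on the log2 difference, which leaves out all variation between embryos. Of 1502 sensory receptor genes, 35 to 39 were above 0 in each of T KO TS13, T KO TS12 and WT TS13, and 1066 in WT TS12. The WT TS12 library therefore stands apart, and it enters the WT differences and the limma test but none of the T KO differences.

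Between the knockout stages, 60 genes (0.737%) were called higher and 70 genes (0.86%) lower at TS13. The middle 95% of the 8144 differences lay between -0.70 and 0.70, around a median of -0.02. These shares and this median are the background for the counts in each list below. The lists are small, and none was tested. Higher at TS13 were neural progenitor genes with Sox1, Pax3 and Sox2 at their head, primitive haemoglobins and metallothioneins. Lower were the ligand genes Wnt3a, Wnt5b and Fgf8, the caudal factors Cdx1 and Cdx4, the Wnt targets Notum and Sp5, and Pou5f1. In bulk samples, fewer cells of a type and less RNA per cell cannot be told apart.

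**Figure D1:**
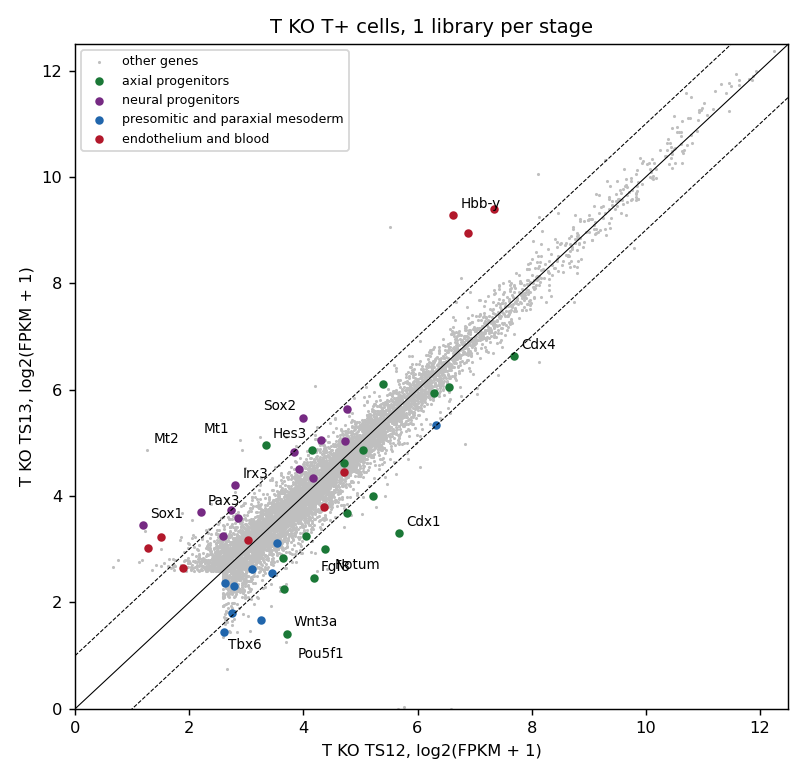
Each point is 1 of the 8144 genes compared, with log2(FPKM + 1) in T KO TS13 on the vertical axis and in T KO TS12 on the horizontal axis, and genes of 4 lists in colour. The solid line marks equal levels and the dashed lines a difference of 1. The neural genes Sox1, Sox2, Pax3 and Irx3 and the progenitor gene Hes3 lie above the upper dashed line. The genes Wnt3a, Fgf8, Cdx1, Pou5f1, Notum and Tbx6 lie below the lower one.

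Axial progenitor genes were mostly lower at the later stage. Of 20 genes in that list 17 were compared, 8 were called lower and 1, Hes3, higher, with a median difference of -0.81. Over all genes compared, 0.86% were called lower and 0.737% higher. Wnt3a, Fgf8 and Sp5 reached 5 FPKM only in T KO TS12, so the minimum fixed their sign but not their size. The Wnt ligand Wnt3a was at 1.66 FPKM in T KO TS13 and 12.05 in T KO TS12, a difference of -2.29, against 18.6 in WT TS13 and 16.3 in WT TS12. It was lowest in T KO TS13, by 7.25-fold against T KO TS12. The ligand Fgf8 was at 4.49 FPKM in T KO TS13 and 17.2 in T KO TS12, a difference of -1.73, against 30.1 and 25.1 in WT TS13 and TS12. Both ligands thus differed little between the WT stages, where their differences were 0.18 and 0.25. Wnt5b, another Wnt ligand of the streak, was at 15.0 FPKM in T KO TS13 and 36.1 in T KO TS12, and at 35.1 and 34.6 in WT TS13 and TS12.

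Not every caudal ligand was lower. Wnt5a, which acts in axis elongation, was at 68.1 FPKM in T KO TS13 and 40.9 in T KO TS12, a difference of 0.72. Fgf17 was at 23.8 and 25.3 FPKM, and Gdf11, the TGF-beta family ligand of the trunk-to-tail transition, at 28.3 and 16.8, in the same order. Wnt8a was at 8.55 FPKM in T KO TS13 and 15.5 in T KO TS12, and was lower at the later stage in WT too, at 1.22 in TS13 and 7.59 in TS12.

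The Cdx genes, caudal homeobox factors that act upstream of Hox genes and of axis extension, were all lower at TS13 but to unequal extents. Cdx1 was at 8.84 FPKM in T KO TS13 and 50.4 in T KO TS12, a difference of -2.39. Its WT levels were 12.4 in TS13 and 32.8 in TS12, and it fell over both genotypes in limma's test (log2 -1.86, SE 0.223, Benjamini-Hochberg adjusted p = 0.0121). Cdx4 was at 98.2 FPKM in T KO TS13 and 205 in T KO TS12, a difference of -1.05, against 151 and 136 in WT TS13 and TS12. Cdx2 was at 65.6 and 93.2 FPKM in T KO TS13 and TS12, short of the threshold at -0.50, and at 68.0 and 68.4 in WT. The homeobox gene Nkx1-2, a marker of these progenitors, was at 60.6 and 77.2 FPKM in the knockout stages, a difference of -0.34.

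Other genes called lower in the list were Sp5 (-1.41), a Wnt-induced transcription factor, the homeobox gene Evx1 (-1.37) and the ephrin receptor Epha5 (-1.09). The exception was Hes3, a Hes family repressor found in neural and caudal progenitors, at 30.1 FPKM in T KO TS13 and 9.13 in T KO TS12, against 2.35 and 1.62 in WT TS13 and TS12. Cyp26a1, which degrades retinoic acid, was at 6.12 and 11.5 FPKM in T KO TS13 and TS12, a difference of -0.81. The same enzyme differed the other way in WT, at 77.6 in TS13 and 45.1 in TS12.

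**Figure D2:**
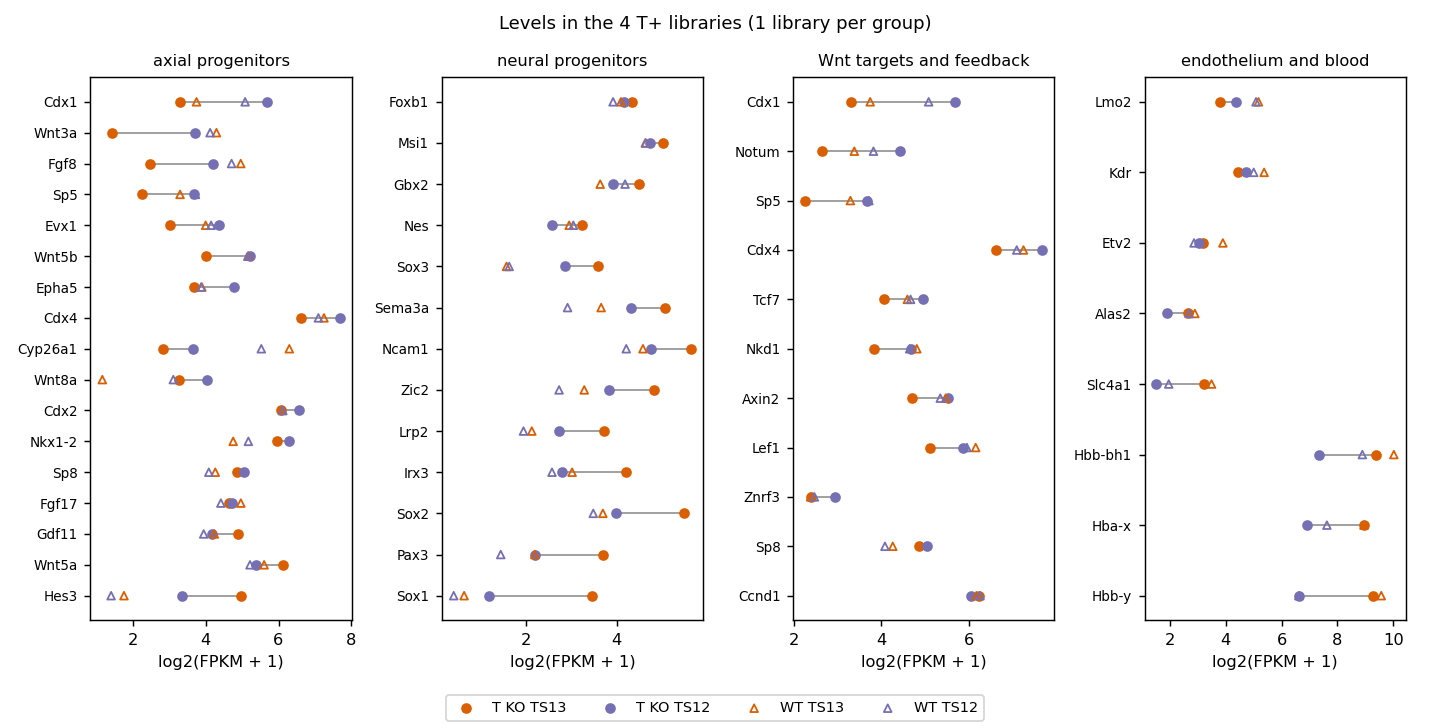
Compared genes of 4 lists are shown, 1 row per gene, with log2(FPKM + 1) on the horizontal axis. Filled circles are the T KO libraries, joined by a line, and open triangles the WT libraries, with TS13 in orange and TS12 in purple. In the axial progenitor and Wnt panels most orange circles lie left of the purple ones, and in the neural panel each of the 13 lies to the right.

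Transcripts that respond to Wnt signalling were lower as well. Of 15 genes in the Wnt target list 11 were compared, 4 were called lower and 0 higher, 10 were below 0, and the median was -0.84, against -0.07 for the same genes in WT. Over all genes compared, 0.86% were called lower and the median was -0.02. The secreted Wnt antagonist Notum was at 5.22 FPKM in T KO TS13 and 20.4 in T KO TS12, a difference of -1.78, against 9.39 and 13.1 in WT TS13 and TS12. Cdx1, Cdx4 and Sp5, which belong to both lists, are the other 3. The feedback gene Axin2 was at 24.8 and 45.1 FPKM in T KO TS13 and TS12 (-0.83), and at 43.4 and 39.7 in WT TS13 and TS12. The differences of Tcf7 (-0.89), Lef1 (-0.74), both transcription factors of the pathway, and Nkd1 (-0.84), a feedback inhibitor, were also short of the threshold. Ccnd1, which encodes cyclin D1, was at 73.9 and 64.8 FPKM.

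Promoter letters were read for genes that moved together, from the 250 bases before each start in RefSeq (GRCm38.p6), searched on both strands. CTTTGA, the core bound by TCF and LEF factors, was in 5 of 56 windows of the genes called lower (8.93%) and in 4 of 60 windows of the genes called higher (6.67%). The share was 10.0% in all 7919 windows of compared genes and 13.8% in all 32851 windows. AGGTGT, the core bound by T-box factors, was in 14 of 56 windows of lower genes (25%) and 5 of 60 of higher genes (8.33%), against 8.85% and 11.8% in the same backgrounds. These letters do not overlap in the sequences shown. Of the 70 lower and 60 higher genes 44 each had a window, and some had several. A match describes letters and not binding. The windows of Sp5, with 2 CTTTGA matches, 204 and 104 bases before the start, and of Cdx4, with 1 AGGTGT match, 139 bases before it, are shown since both genes were called lower and carry the letters on the gene's strand. Capitals mark the matches. Sp5 is read from chr2:70474673-70474922 and Cdx4 from chrX:103321148-103321397, both on the plus strand of GRCm38.p6.
Sp5: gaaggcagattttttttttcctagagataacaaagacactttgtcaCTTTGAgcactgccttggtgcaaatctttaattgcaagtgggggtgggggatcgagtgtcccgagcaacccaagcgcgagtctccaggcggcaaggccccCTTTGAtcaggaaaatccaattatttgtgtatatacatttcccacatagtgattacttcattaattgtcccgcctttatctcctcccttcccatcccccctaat
Cdx4: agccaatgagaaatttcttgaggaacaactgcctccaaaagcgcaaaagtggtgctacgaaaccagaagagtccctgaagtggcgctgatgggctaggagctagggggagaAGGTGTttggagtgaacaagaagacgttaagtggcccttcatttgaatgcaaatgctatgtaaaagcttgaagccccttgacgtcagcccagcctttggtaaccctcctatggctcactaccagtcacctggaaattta

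Of the FGF feedback genes, few were called. All 11 genes of that list were compared, 2 were called lower (0.86% over all genes compared) and 0 higher, and the median was -0.18. Spry4, an inhibitor of FGF signalling, was at 6.58 FPKM in T KO TS13 and 17.3 in T KO TS12 (-1.28), against 16.5 and 17.3 in WT TS13 and TS12. Etv4, an ETS factor induced by FGF, was at 11.8 and 26.8 FPKM in the knockout stages (-1.11), against 17.5 and 20.3 in WT. Etv5 differed by -0.77 and the phosphatase gene Dusp6 by -0.46, while Spry2 was nearly level at 18.99 and 19.08 FPKM and Spry1 was higher by 0.44. With a pseudocount of 5, 0 of the 2 calls were left.

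Neural progenitor genes were higher in T KO TS13. Of 29 genes in that list 13 were compared, 5 were called higher and 0 lower, all 13 were above 0, and the median was 0.88, against 0.21 for the same genes in WT. Over all genes compared, 0.737% were called higher and the median was -0.02. Among the 13, Sox1 and Pax3 reached 5 FPKM only in T KO TS13, so the minimum fixed their sign in T KO. Sox1, a SoxB1 factor of the neural plate, was at 9.98 FPKM in T KO TS13 and 1.27 in T KO TS12, a difference of 2.27, and at 0.57 and 0.34 in WT TS13 and TS12. Sox2 was at 43.5 FPKM in T KO TS13, 14.9 in T KO TS12, 11.99 in WT TS13 and 10.2 in WT TS12, with a difference of 1.49 in T KO and 0.21 in WT. For both genes T KO TS13 was the library that stood highest. The third SoxB1 gene, Sox3, was at 11.0 and 6.24 FPKM in T KO TS13 and TS12 (0.73), and at 1.99 and 2.12 in WT TS13 and TS12.

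Pax3, a factor of dorsal neural tube that also marks somites, was at 11.97 FPKM in T KO TS13 and 3.59 in T KO TS12 (1.50), against 3.60 and 1.74 in WT TS13 and TS12. Irx3, a homeobox factor of the neural tube, was at 17.4 and 5.98 FPKM (1.40), against 7.13 and 4.98 in WT. Lrp2, an endocytic receptor of neuroepithelium, was at 12.3 and 5.61 FPKM (1.01). Zic2 (0.99) and the adhesion molecule Ncam1 (0.88) were short of 1. Zic5, a relative of Zic2 that is not in the list, was at 8.31 and 3.15 FPKM (1.17), against 0.86 and 1.40 in WT. It reached 5 FPKM only in T KO TS13, so the minimum fixed its sign in T KO.

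The 16 other neural genes stayed under 5 FPKM in both knockout libraries. Pax6, of the maturing spinal cord, was at 3.53 and 3.37 FPKM in T KO TS13 and TS12, Olig2 and Nkx6-1 were listed at 0 in both, and Irx5 was at 4.86 and 1.34. Of 17 neuronal differentiation genes 3 were compared and 0 were called either way, with a median of 0.06. Neuronal genes were thus largely below the minimum at both stages.

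The genes called in T KO were set beside the sorted WT fractions of TS12, a separately normalised table from another library kit. Sox2+ cells there exceeded T+ cells by 2-fold or more for 211 of the compared genes (2.59%) and lay below them by as much for 165 (2.03%). The Sox2+ fraction was not free of T mRNA, with T at 192 FPKM there and 141 in T+ cells. Sox2 was at 50.5 and 2.82 FPKM and Tbx6 at 47.9 and 152, in the same order. Among the 60 genes higher at TS13, 23 were higher in Sox2+ cells (38.3% of the 60, 10.9% of the 211). Another 13 were lower there (21.7% of the 60, 7.88% of the 165). The 13 include the globin genes Hba-a1, Hba-x, Hbb-y and Hbb-bh1, the red cell gene Slc4a1, Mt1 and Mt2. The 23 include Sox1, Sox2, Pax3, Irx3, Hes3 and Lrp2, the cadherin gene Cdh6, the growth factor gene Ptn, the FGF receptor gene Fgfr2 and Zic5. Among the 70 genes lower at TS13, 7 were higher in Sox2+ cells (10%) and 9 were lower (12.9%). The 7 include Fgf8, Notum, Epha5, Esrp1 and Pou5f1, and the 9 include Tbx6, Osr1, Fst, Phlda2, Akr1b3 and Hba-a2.

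Presomitic genes were already low in T KO TS12 and were lower at TS13. Of 25 genes in that list 9 were compared, 2 were called lower and 0 higher, and all 9 were below 0, with a median of -0.89, against 0.11 in WT. The other 16 were under 5 FPKM in both knockout libraries, 5 of them listed at 0 in both. Tbx6, Dll3, Lfng, Hes7, Aldh1a2 and Fst reached 5 FPKM only in T KO TS12. The minimum thus fixed their sign in T KO, though not in WT. Over all genes compared, 0.86% were called lower. Summed over the list, the level was 81.5 FPKM in T KO TS13 and 150 in T KO TS12, against 420 and 430 in WT TS13 and TS12. Tbx6, which commits cells to presomitic fate, was at 1.70 FPKM in T KO TS13 and 5.13 in T KO TS12 (-1.18), against 23.2 and 21.4 in WT TS13 and TS12.

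Msgn1, a bHLH factor of the same tissue, was at 1.18 and 3.48 FPKM in T KO TS13 and TS12, under the minimum, and at 42.5 and 56.9 in WT. Also under the minimum, the forkhead genes Foxc1, at 4.64 and 2.75 FPKM in T KO TS13 and TS12, and Foxc2, at 1.66 and 0.32, were higher at TS13. The Notch ligands Dll3 (-0.89) and Dll1 (-0.47), the clock gene Hes7 (-0.47) and the Wnt enhancer Rspo3 (-0.42) were lower without passing the threshold. Cited1, a transcriptional coactivator, was at 39.5 and 79.4 FPKM, just short at -0.99. With a pseudocount of 5, 0 of the 2 calls of the list were left and its median was -0.52. Fst, the activin antagonist follistatin, was at 2.17 FPKM in T KO TS13 and 8.54 in T KO TS12, against 3.73 and 14.0 in WT. It fell over both genotypes in limma's test (log2 -1.63, SE 0.206, adjusted p = 0.0137). Aldh1a2, which makes retinoic acid, was at 2.50 and 5.76 FPKM in T KO TS13 and TS12 and at 5.79 and 26.7 in WT, without passing that test (adjusted p = 0.0759).

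**Figure D3:**
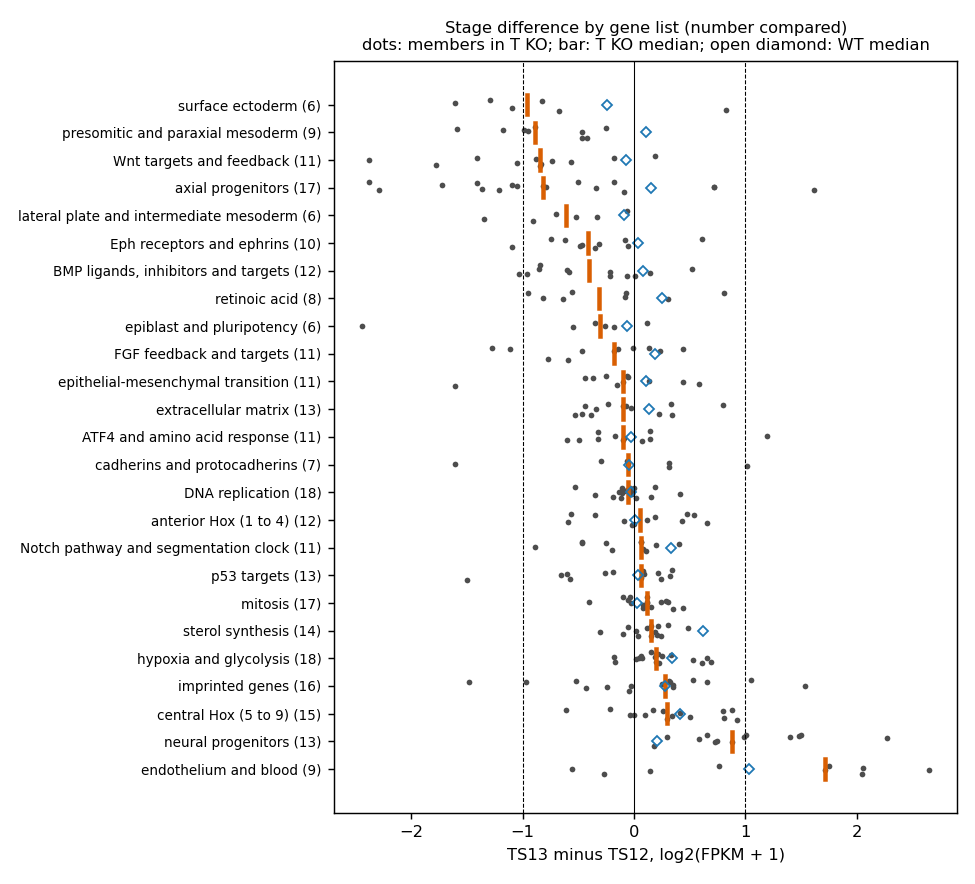
Stage differences in T KO (TS13 minus TS12, log2(FPKM + 1)) of the compared members of each list with at least 6 of them, 1 dot per gene, with the T KO median as an orange bar and the WT median of the same genes as an open diamond. Dashed lines mark a difference of 1. Medians run between -0.96 for surface ectoderm and 1.71 for endothelium and blood. The T KO bar lies left of the WT diamond in the presomitic, axial progenitor and Wnt lists. It does so in other lists too, such as surface ectoderm, BMP, retinoic acid and sterol synthesis, and lies to the right in the neural progenitor and blood lists. Over all compared genes, T KO minus WT had a median of -0.07.

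Lists of lateral plate mesoderm and surface ectoderm had negative medians, with few calls. All 6 compared lateral plate and intermediate mesoderm genes were below 0 (median -0.61), and Osr1, an intermediate mesoderm factor, was called lower at 4.06 FPKM in T KO TS13 and 11.9 in T KO TS12 (-1.35), against 17.0 and 18.6 in WT. Of 6 compared surface ectoderm genes 3 were called lower (0.86% over all genes compared) and 0 higher (median -0.96). They are the Wnt ligand Wnt6 (-1.29), the E-cadherin gene Cdh1 (-1.61) and the epithelial splicing factor gene Esrp1 (-1.10). Cdh1 was at 1.76 FPKM in T KO TS13 and 7.40 in T KO TS12, and at 3.73 and 6.77 in WT TS13 and TS12. Grhl3, a surface ectoderm factor, lay on the other side at 14.3 and 7.62 FPKM (0.83). Osr1, Wnt6, Cdh1 and Esrp1 reached 5 FPKM only in T KO TS12, so the minimum fixed their sign. With a pseudocount of 5, 0 of these 4 calls were left.

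Among 12 compared BMP genes the homeobox target Msx1 was called lower at 3.81 FPKM in T KO TS13 and 8.84 in T KO TS12 (-1.03), the median was -0.40, and Bmp4 differed by -0.59 and Id3 by -0.85. Msx1 was under the threshold at -0.65 with a pseudocount of 5. Of the knockout libraries only T KO TS12 reached 5 FPKM for it, so the minimum fixed its sign in T KO. Over all genes compared, 0.86% were called lower. Of 8 compared retinoic acid genes 0 were called, with a median of -0.32. The binding protein gene Crabp2 was the highest of them, at 506 FPKM in T KO TS13 and 289 in T KO TS12 (0.81), against 213 and 139 in WT. Of 11 compared Notch genes 0 were called (median 0.06), and the receptors Notch1, Notch2 and Notch3 were at 0.40, 0.20 and 0.06. Of 10 compared Eph and ephrin genes Epha5 alone was called, and the median was -0.41.

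Pou5f1, the pluripotency factor of epiblast that is switched off around these stages, was at 1.40 FPKM in T KO TS13 and 12.01 in T KO TS12 (-2.44), against 9.72 and 35.7 in WT TS13 and TS12. It fell over both genotypes (log2 -2.11, SE 0.197, limma, adjusted p = 0.00156). The other 5 compared epiblast genes were not called, and the list median was -0.31. Among 13 compared p53 targets the cell cycle inhibitor gene Cdkn1a alone was called lower, at 2.81 FPKM in T KO TS13 and 9.77 in T KO TS12 (-1.50), while in WT it was at 7.58 and 5.91. With a pseudocount of 5 its difference was -0.92. Pou5f1 and Cdkn1a reached 5 FPKM only in T KO TS12 of the knockout libraries, so the minimum fixed their sign in T KO. Over all genes compared, 0.86% were called lower and 0.737% higher. Among 16 compared imprinted genes Phlda2, a brake on growth, was lower at 22.5 and 64.7 FPKM (-1.48). The zinc finger gene Plagl1 (1.54) and the inhibitor gene Cdkn1c (1.05) were higher. Of 18 DNA replication, 17 mitosis, 18 hypoxia and glycolysis and 14 sterol synthesis genes 0 were called in T KO, with medians of -0.05, 0.12, 0.20 and 0.15.

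Blood genes were higher at TS13 in both genotypes. Of 19 endothelium and blood genes 9 were compared, with a median of 1.71 in T KO and 1.03 in WT. In T KO 5 were called higher (0.737% over all genes compared) and 0 lower. Slc4a1, among those called, reached 5 FPKM only in T KO TS13, so the minimum fixed its sign in T KO. The embryonic beta globin gene Hbb-y was at 620 FPKM in T KO TS13 and 97.7 in T KO TS12 (2.65), and at 759 and 97.1 in WT TS13 and TS12. It rose over both genotypes in limma's test (log2 2.80, SE 0.183, adjusted p = 0.000219), as did Hba-x (1.69, adjusted p = 0.0137), Hbb-bh1 (1.59, adjusted p = 0.0488) and the red cell anion exchanger gene Slc4a1 (1.62, adjusted p = 0.0290). The endothelial genes Kdr, at 20.8 and 25.3 FPKM in T KO TS13 and TS12, and Etv2, at 8.00 and 7.16, were not called. Erythroid transcripts therefore set these calls, and the summed level of the list was 1871 FPKM in T KO TS13, 456 in T KO TS12, 2446 in WT TS13 and 888 in WT TS12. The part of blood cells in the other differences was not tested.

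The metallothionein genes, whose proteins bind zinc and copper, were the second group that rose in both genotypes. Mt2 was at 27.98 FPKM in T KO TS13 and 1.38 in T KO TS12, a 20.2-fold difference, and at 13.4 and 0.90 in WT TS13 and TS12 (limma log2 3.26, SE 0.237, adjusted p = 0.000388). Mt1 was at 32.2 and 6.39 FPKM in T KO and at 12.7 and 1.26 in WT (limma log2 2.38, SE 0.187, adjusted p = 0.000463). In all 4 values of each gene, both TS13 libraries stood above both TS12 libraries. Of 3 compared stress and immediate early genes 1 was called higher. Of 11 compared ATF4 response genes 1 was called higher, with a median of -0.10 and 7 of 11 below 0. Over all genes compared, 0.737% were called higher. The immediate early gene Jun was at 11.9 FPKM in T KO TS13 and 2.64 in T KO TS12 (1.82), and Ddit3, of the integrated stress response, at 5.72 and 1.93 (1.20), neither with a WT difference of 1. With a pseudocount of 5, Ddit3 was under the threshold at 0.63. Mt2, Jun and Ddit3 reached 5 FPKM only in T KO TS13, so the minimum fixed their sign in T KO.

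The only test of stage that the design allows fits genotype and stage over the 4 T+ libraries, leaves 1 residual degree of freedom and asks how alike the stage difference is in T KO and WT, not how embryos vary. Of 8419 genes, 13 rose (0.154%) and 4 fell (0.0475%) at a Benjamini-Hochberg adjusted p of 0.05, and 751 had an unadjusted p under 0.05. Beside the blood and metallothionein genes, those that rose include Igfbp5, which binds insulin-like growth factors (1.60, adjusted p = 0.0160), Plagl1 (1.43, adjusted p = 0.0125) Hoxc9 (1.01, adjusted p = 0.0350) and 2610528A11Rik (1.87, adjusted p = 0.000463). Those that fell are Pou5f1, Cdx1, Fst and the histone gene Hist1h2ap, which is listed at 0 in T KO TS13 and in WT TS13. Wnt3a (adjusted p = 0.502), Fgf8 (0.5995), Sox1 (0.543) and Sox2 (0.307) did not pass. The calls depend on the fit: without the genotype term 1 gene rose and 0 fell, with 418 at an unadjusted p under 0.05.

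The overlap of both stage differences was limited in these libraries. In WT, 76 of the 8144 genes (0.933%) were at least 2-fold higher and 21 (0.258%) at least 2-fold lower at TS13. Of the 60 genes higher in T KO, 15 were also higher in WT (25% of the 60, 19.7% of the 76) and 0 were lower. Of the 70 genes lower in T KO, 4 were also lower in WT (5.71% of the 70, 19% of the 21) and 0 were higher, and these are Cdx1, Fst, Hist1h2ap and Pou5f1. The 60 higher genes had a median difference of 1.33 in T KO and 0.43 in WT, with 47 of the same sign. The 70 lower genes had -1.19 in T KO and -0.12 in WT, with 44 of the same sign. Over all 8144 genes the WT median was 0.05 and both differences had a Pearson correlation of 0.23. The share of the same sign over all genes was not counted. The T KO medians follow from the choice of these genes.

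**Figure D4:**
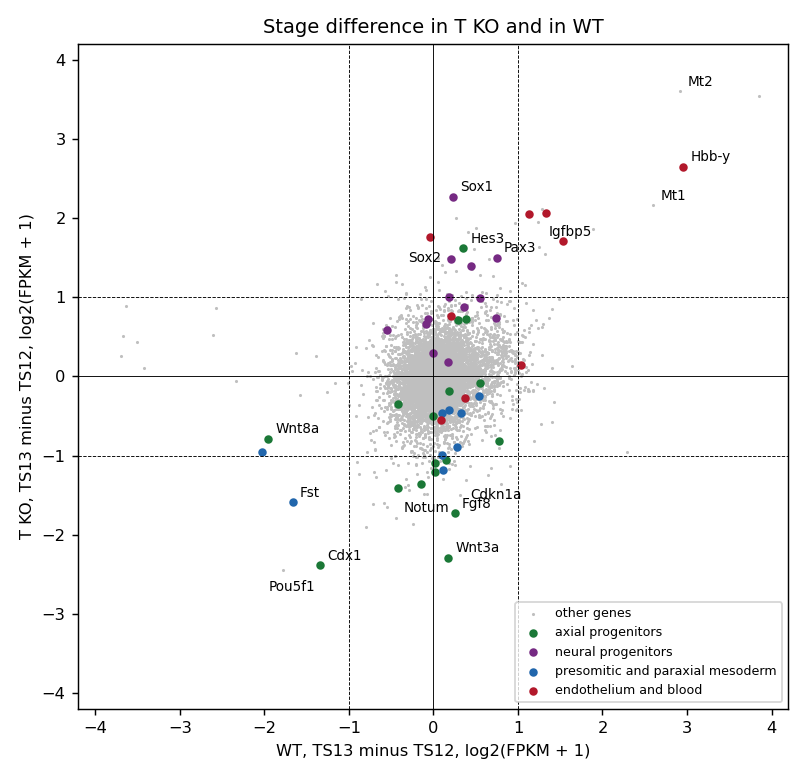
Stage difference in T KO (vertical axis) against WT (horizontal axis), both as TS13 minus TS12 on log2(FPKM + 1), with 1 point per compared gene and 4 lists in colour. Dashed lines mark a difference of 1, and 4 genes lie outside the axes. Mt2, Mt1 and Hbb-y are high and Pou5f1, Cdx1 and Fst low on both axes, while Sox1, Sox2, Hes3, Wnt3a, Fgf8 and Cdkn1a differ by at least 1 in T KO and by less than 0.5 in WT.

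Set against WT, the T KO stage difference was lowest for Hba-a2 (-6.55), Amd1 (-6.39), Rnaset2a (-3.24) and Hist1h2ap (-2.64), which have near-identical copies, and then for Wnt3a (-2.47). No residual degree of freedom is left for a test of that difference between genotypes. The differences most above WT, for Snrpn (4.79), A630089N07Rik (4.54), 4930470H14Rik (4.18), A130077B15Rik (3.95) and Olfr613 (3.94), come with WT stage differences between -5.31 and -3.51. Snrpn was at 0.15 FPKM in WT TS13, and the 4 others were at 45.3 to 285 FPKM in WT TS12, which is the library that stands apart.

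Hox genes, which give cells their position along the body axis in the order of their clusters, were not called between the knockout stages, with 1 exception. All 12 Hox genes of paralog groups 1 to 4 and all 15 of groups 5 to 9 were compared, and 0 of these 27 were called in T KO. Over all genes compared, 0.737% were called higher and 0.86% lower, so 0 calls among 27 genes do not stand out. The medians were 0.05 for groups 1 to 4, with 6 of 12 above 0, and 0.29 for groups 5 to 9, with 11 of 15 above 0. The same counts above 0 held in WT, with medians of 0.00 and 0.41. Of groups 10 to 13 only Hoxa10 reached the minimum, at 5.79 FPKM in T KO TS13 and 1.18 in T KO TS12 (1.64). It did so only at TS13, so the minimum fixed its sign in T KO. In WT it was at 10.6 FPKM in TS13 and 3.91 in TS12, and it did not pass limma's test (adjusted p = 0.0791). Hoxa9 was at 120 and 64.7 FPKM in the knockout stages (0.88) and Hoxc9 at 43.5 and 22.4 (0.92). The other compared genes of group 9, Hoxb9 (-0.003) and Hoxd9 (-0.22), were not higher. At the other end of the clusters, Hoxd1 (-0.60) and Hoxb1 (-0.09) were lower, while Hoxd3 (0.66) and Hoxd4 (0.54) were higher. The lowest compared Hox gene was Hoxb6 (-0.61), of group 6.

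**Figure D5:**
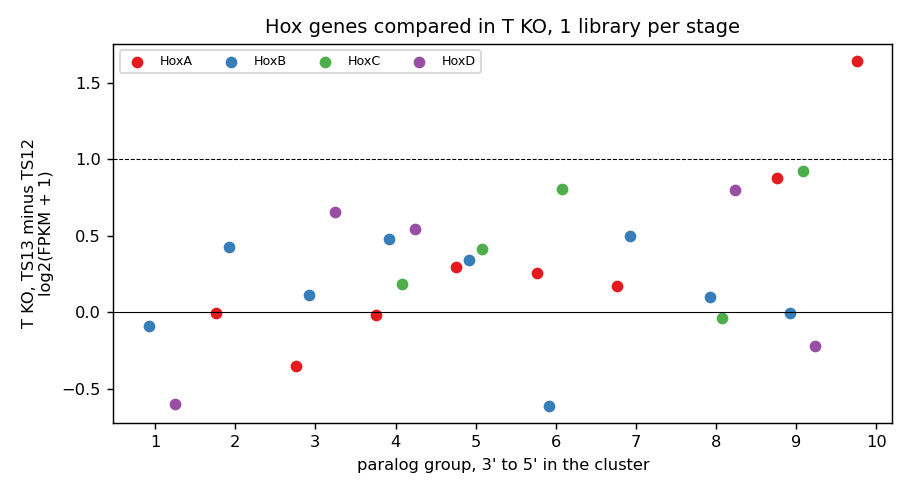
Stage difference in T KO (TS13 minus TS12, log2(FPKM + 1)) of 27 Hox genes compared, by paralog group on the horizontal axis and by cluster in colour. The dashed line marks a difference of 1. Hoxa10 is the gene above it, and both group 1 genes shown lie below 0.

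Further genes are among the 15 with the largest difference in a direction. Gdf10, a ligand of the TGF-beta family, was at 5.33 FPKM in T KO TS13 and 0.58 in T KO TS12 (2.01), and at 0.42 and 0.18 in WT TS13 and TS12. Akr1b3, which encodes aldose reductase, was at 30.5 and 113 FPKM in T KO TS13 and TS12 (-1.86), against 90.4 and 107 in WT. In the separately normalised WT fractions Akr1b3 was at 0 FPKM in Sox2+ and 1.26 in T+ cells, so its level is uncertain. Grsf1, which encodes an RNA-binding protein, was at 91.0 and 279 FPKM (-1.60), against 175 and 264 in WT. In each of these 3 genes the sign in WT was the same and the size smaller. Ndufa4l2 (2.11), the beta globin gene Hbb-b2 (2.05), 2310014L17Rik (1.88), 2610528A11Rik (1.86), Tmem59l (-1.90) and Mob1b (-1.65) were the others outside the lists. Gdf10, Ndufa4l2, Hbb-b2 and Tmem59l reached 5 FPKM at only 1 knockout stage, so the minimum fixed their sign in T KO.

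Among genes with the largest differences, some share reads with near-identical copies and are uncertain. Hist1h2ap was listed at 0 FPKM in T KO TS13 and at 95.4 in T KO TS12, Hba-a2 at 0 and 49.3, and Amd1 at 0.02 and 53.4, while Hba-a1, the copy of Hba-a2, was at 535 and 45.0. Rps27 (1.94) and its copy Rps27rt (-1.13) lay on opposite sides. Near the threshold, Lrp2 and Cdh6 lay just inside on the higher side at 1.01 and Gadd45a, Ssbp2 and Zic2 just outside at 0.99. On the lower side Dhx9, Ywhab and Fkbp1a lay just inside at -1.001 to -1.011 and Zbtb34, Cited1 and Uso1 just outside at -0.99.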

How the data were processed

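RNA libraries were strand-specific ScriptSeq libraries from ribosomal RNA depleted total RNA of sorted cells, per the labels' protocols. The authors deposited FPKM values per gene symbol for 6 libraries in 1 table, of which the 4 T+ libraries are used, and separately normalised FPKM values of sorted fractions. Per the submitters' processing notes, TopHat2 2.1.0, Bowtie 1.1.2, Cufflinks 2.2.1, Picard 1.103, bedtools 2.23.0 and the mouse build mm10 were used, with no roles given. No counts are used here.

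Values were taken as log2(FPKM + 1), with a minimum of 5 FPKM. Left out were 1242 small RNA genes, 1125 numbered gene models and 215 pseudogenes. The stage effect over both genotypes was fitted with limma 3.58.1 in R 4.3.3 (genotype and stage, empirical Bayes with trend, Benjamini-Hochberg at 0.05, T left out), checked on simulated data. Medians, counts and figures came from Python 3.11.15, pandas 2.3.3 and matplotlib 3.10.9. Depth was estimated where low FPKM values times gene length fell on whole fragments (within 0.0003, up to 15 fragments, genes under 6000 bases). This held for 35.1% to 61.6% of the genes searched in a library. Nothing says that libraries came from separate litters.

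Named genes are the 15 with the largest T KO difference in each direction, the 5 in each direction furthest from WT, T, Sox2, Tbx6 and members of the 37 gene lists. Zic5, Ptn and Fgfr2, genes next to the threshold and genes that share a count of 5 or fewer were added after their values were seen. The genes compared and the lists were chosen with earlier results of these data known. A few genes are not reported here. Alternatives tried were other pseudocounts, minimums, scalings, gene kinds and fits.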

Additional observations from a re-analysis of the deposited data

Results flagged for a closer look

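For 9 genes called between the knockout stages, the stage difference had the opposite sign in WT and was at least 0.5 in size there. The share of all compared genes with opposite signs was not counted. The difference between genotypes was not tested, since each group has 1 library. It was positive for 2410012E07Rik (T KO minus WT, 1.84), the growth factor gene Ptn (1.65) and the cadherin gene Cdh6 (1.55). Ptn was at 19.1 FPKM in T KO TS13 and 8.52 in T KO TS12, against 7.46 and 11.6 in WT TS13 and TS12, and Cdh6 at 11.1 and 5.03 against 1.32 and 2.37. It was negative for BC002163 (-2.17), Terc (-1.88), the RNA part of telomerase, and Nenf (-1.84). It was also negative for Hba-a2 (-6.55), Amd1 (-6.39) and Rps27rt (-2.04), 3 genes with near-identical copies. 2410012E07Rik, Nenf, Hba-a2 and Amd1 reached 5 FPKM at only 1 knockout stage, so the minimum fixed their sign in T KO. Ptn and Cdh6 were also at least 2-fold higher in Sox2+ than in T+ sorted WT cells.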

How the results depend on the processing

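Between the knockout stages, 60 genes were higher and 70 lower. A pseudocount of 5 gave 22 and 26, a minimum of 20 FPKM gave 21 and 29, and a minimum of 1 FPKM or none gave 122 and 146. In WT, where 81 genes were higher and 37 lower over its own minimum, a pseudocount of 5 gave 33 higher, a minimum of 20 FPKM 47 and 16, and a minimum of 1 FPKM or none 93 lower. A pseudocount of 0.1, both scalings and all symbols kept left these counts within 1.5 times. No gene called in T KO changed sign with the other pseudocounts or scalings. The signs of the remaining compared genes were not followed, and the median over all of them went from -0.02 to 0.005 with median-of-ratios scaling. Median-of-ratios scaling took AI506816, Dhx9, Fkbp1a and Ywhab to just under the threshold. The pseudocount of 5 left 6 of 8 lower calls in the axial progenitor list, 3 of 4 in the Wnt target list, 3 of 5 higher calls in the neural list and 3 of 5 in the blood list, whose median was 0.92. It left 0 in the presomitic (median -0.52), FGF feedback, BMP, lateral plate, surface ectoderm and p53 lists, and took Hoxa10 to 0.80. In limma's test 13 genes rose and 4 fell. A pseudocount of 5 gave 8 that rose, a minimum of 20 FPKM 6 and 1, the minimum in every library 4 and 1, median-of-ratios scaling 6 that rose, and no genotype term 1 and 0, with 418 genes at an unadjusted p under 0.05. Leaving out each library in turn without the genotype term gave 0 to 3 that rose and 0 to 5 that fell. The cause was not tested. No paired analysis was possible because each group has 1 library and so no replicate numbers to pair; the genotype term compares the stages within each genotype. Depth limits genes near 5 FPKM, and intervals for counting error leave out differences between embryos.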

Other observations

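Gene families chosen after values were seen differed less between the knockout stages than between the WT stages. The compared cytoplasmic ribosomal protein genes had a median stage difference of 0.20 in T KO and 0.71 in WT (80 genes), nuclear oxidative phosphorylation genes 0.08 and 0.64 (83 genes), and clustered histone genes 0.03 and 0.97 (61 genes). The sterol synthesis list had 0.15 and 0.62 (14 genes). The WT values include the WT TS12 library, whose part in them was not tested.

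The imprinted RNAs Meg3 and Rian were near 0 at both knockout stages, at 0.08 and 0.18 FPKM in T KO TS13 and at 0.06 and 0.22 in T KO TS12. They were at 20.0 and 110 FPKM in WT TS13 and at 22.1 and 107 in WT TS12. The summed level of the Y-linked genes and Xist was 56.2 FPKM in T KO TS13 and 42.1 in T KO TS12, against 0.57 in WT TS13 and 0.93 in WT TS12. Of the 5 genes 3 reached 5 FPKM in a knockout library. Xist is the only one of the 5 that is not Y-linked, so Y-linked genes were among the 3. The WT sums show that none of the 5 reached 5 FPKM in WT. Y-linked expression thus differed between the genotypes, as the strain label does, and its bearing on the T KO against WT values was not tested.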
